A study of Homo sapiens with 4 samples.

Results

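GJA1, GJA4, GJA5 and GJC1 encode connexins, the proteins of gap junctions, and were followed here as the connexins of the vessel wall. They were chosen by symbol, and all 4 were found, with a single row each, among 28285 gene rows. The RNA was from differentiated and sorted cells of H1, a human embryonic stem cell line in wide use, into which an eGFP reporter had been knocked at GATA2. The GFP-positive group was labelled as hemogenic endothelium with the surface profile eGFP+CD34+CD31+CD43-, and the GFP-negative group as endothelial cells with the profile eGFP-CD34+CD31+CD43-. Each group had 2 libraries, and the GATA2/eGFP genotype was common to both. The sample titles also give Cre for all 4 libraries without a role, and all source names read hemogenic endothelium, the GFP-negative libraries included. The comparison asked how cells with and without eGFP signal differ in their transcripts. Nothing in the labels places the replicates in separate cultures, and the spread that the p-values rest on may therefore be technical.

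Connexins assemble in rings of subunits that form a channel through the membrane, and channels of neighbouring cells dock to make a gap junction, through which ions and small metabolites pass. GJA4 (protein Cx37) and GJA5 (Cx40) are the connexins best known from arterial endothelium, and GJA5 is also a connexin of the heart's atria and conduction system. GJA1 (Cx43) is the most widely expressed connexin, found in endothelium at sites of disturbed flow, in smooth muscle, in fibroblasts and in pluripotent stem cells. GJC1 (Cx45) is known from the embryonic heart and from smooth muscle, and is needed for early vessel formation in the mouse.

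On GRCh38 with GENCODE v29, GJA1 lies on chromosome 6 from 121435577 to 121449727 on the plus strand, and GJC1 on chromosome 17 from 44798448 to 44830816 on the minus strand. Both others lie on chromosome 1, GJA4 from 34792998 to 34795747 on the plus strand and GJA5 from 147756199 to 147773362 on the minus strand. In the annotated transcript with the longest coding sequence, each gene keeps its whole coding sequence in 1 exon. It runs over 1146 nt in GJA1, 999 nt in GJA4, 1074 nt in GJA5 and 1188 nt in GJC1, without the stop codon. The tables list GJA5 as ENSG00000143140, whereas GENCODE v29 has the symbol under ENSG00000265107, so GJA5 was matched by symbol. The other identifiers, ENSG00000152661 for GJA1, ENSG00000187513 for GJA4 and ENSG00000182963 for GJC1, are the same in both.

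Transcription starts are shown for GJA5 and GJA1, the 2 members matched in the RefSeq promoter table; those of GJA4 and GJC1 are not used here. Each window runs from 250 bases before to 50 bases after a RefSeq start on GRCh38.p14 and is written 5′ to 3′ on the gene's strand. The GJA5 windows lie at chr1:147773302-147773601 (upstream start) and chr1:147760553-147760852 (downstream start), both on the minus strand, and the GJA1 window at chr6:121435396-121435695 on the plus strand. Capitals mark the motifs searched on both strands.
GJA5 upstream start: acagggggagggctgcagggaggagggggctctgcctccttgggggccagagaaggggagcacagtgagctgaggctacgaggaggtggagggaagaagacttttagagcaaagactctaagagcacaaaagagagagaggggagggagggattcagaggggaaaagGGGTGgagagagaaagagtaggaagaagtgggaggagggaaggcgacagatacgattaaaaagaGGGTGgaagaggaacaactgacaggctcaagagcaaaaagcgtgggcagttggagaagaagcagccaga
GJA5 downstream start: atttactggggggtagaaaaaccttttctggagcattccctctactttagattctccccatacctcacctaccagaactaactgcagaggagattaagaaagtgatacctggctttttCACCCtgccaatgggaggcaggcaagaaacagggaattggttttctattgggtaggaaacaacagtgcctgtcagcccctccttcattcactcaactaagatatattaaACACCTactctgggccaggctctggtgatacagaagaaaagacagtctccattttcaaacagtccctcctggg
GJA1: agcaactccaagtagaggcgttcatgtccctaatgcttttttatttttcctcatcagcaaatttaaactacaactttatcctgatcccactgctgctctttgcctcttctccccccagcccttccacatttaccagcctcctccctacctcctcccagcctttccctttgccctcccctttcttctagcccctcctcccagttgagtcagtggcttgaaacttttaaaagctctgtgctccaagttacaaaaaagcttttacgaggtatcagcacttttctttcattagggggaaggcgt
The motifs were AGATAA and TGATAA of GATA factors, TGGGAA of the Notch effector RBPJ, CACCC of KLF factors, ACAATG of SOX factors, GGAAGT of ETS factors and AGGTGT of T-box factors. None of them overlaps another in these windows. CACCC occurred 2 times in the upstream GJA5 window, on the strand opposite to the gene, and 1 time in the downstream one, on the gene's strand. Of 35116 promoter windows of this length, 59.9% hold it on either strand. AGGTGT occurred 1 time, in the downstream GJA5 window, on the strand opposite to the gene, against 11.4% of windows. The GJA1 window held none of the 7 motifs, and the other 5 motifs were in none of the 3 windows. Their shares of all windows were 10.3% for AGATAA, 7.53% for TGATAA, 24.0% for TGGGAA, 10.8% for ACAATG and 22.8% for GGAAGT. A match is a description of these letters only, and the deposited gene values do not separate the 2 RefSeq starts of GJA5 shown here. GENCODE v29 lists 3 distinct starts for GJA5.

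Levels were deposited as TPM, a gene's share of all transcripts after correction for transcript length, scaled to a fixed total, so that levels of different genes can be set side by side. TPM keeps no read total, and the depth behind each value is unknown. GATA2 itself stood at 302 and 385 TPM in the GFP-positive libraries against 80.2 and 87.3 TPM in the GFP-negative libraries. CD34, by which both fractions were sorted, stood at 458 and 536 against 1232 and 1199 TPM. Limma called both differences (adjusted p = 0.0316 for each; for CD34 it was 0.0504 with the first GFP-positive library left out and 0.0908 with the first GFP-negative one left out), and SPN, the gene of CD43, was between 9.66 and 16.9 TPM in every library. PECAM1, the gene of CD31, is not analysed here.

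All 4 vascular connexins were at 26.2 TPM or more in every library, and the 17 other connexins in the tables summed to 11.2 TPM or less in each. GJA1 was the most abundant member in each library and GJC1 or GJA5 the least. The gene whose mean was higher in GFP-positive cells was GJA5, at 85.0 ± 39.6 against 41.2 ± 10.5 TPM (SD, n = 2 per group). GJC1 was lower in GFP-positive cells, at 28.5 ± 3.20 against 47.5 ± 0.297 TPM. GJA1 and GJA4 had lower means in GFP-positive cells, with libraries that overlapped. No member passed the threshold in limma over all genes, so none of these differences is called.

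GJA5 had 113 and 57.0 TPM in GFP-positive replicates 1 and 2, and 48.7 and 33.8 TPM in the GFP-negative replicates. Both GFP-positive libraries were above both GFP-negative libraries, but the lower of the former was closer to the GFP-negative values than to the other GFP-positive library. On the log2(TPM + 1) scale its fold change was 0.97 ± 0.36 (SE over 4 libraries; 95% interval 0.079 to 1.86; limma adjusted p = 0.322). The size rested on GFP-positive replicate 1, without which the log2 fold change was 0.48, against 1.46 without GFP-positive replicate 2. These intervals are for single genes and are not adjusted for the number of genes tested.

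GJC1 had 26.2 and 30.8 TPM in the GFP-positive libraries and 47.3 and 47.8 TPM in the GFP-negative libraries. The libraries of the groups did not overlap, and the GFP-negative pair was nearly identical. Its log2 fold change was -0.72 ± 0.22 (95% interval -1.26 to -0.19; limma adjusted p = 0.234). It ranged from -0.83 to -0.61 with each library left out in turn, the narrowest range of the 4 members.

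GJA1 had 229 and 296 TPM in the GFP-positive libraries and 239 and 432 TPM in the GFP-negative libraries. Only GFP-negative replicate 2 stood above the rest, and the other libraries of both groups lay together. The log2 fold change was -0.30 ± 0.29 (95% interval -1.02 to 0.41; limma adjusted p = 0.722). It turned to 0.12 without GFP-negative replicate 2. GENCODE v29 also holds a processed pseudogene, GJA1P1, on chromosome 5. Its 1143 nt align to the GJA1 transcript with 96.8% identity and an identical run of up to 146 nt, so reads of the GJA1 coding sequence may not all be assignable. The GJA1P1 level is not analysed here.

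GJA4 had 74.2 and 59.4 TPM in the GFP-positive libraries and 95.5 and 68.8 TPM in the GFP-negative libraries. The higher GFP-positive library lay between the GFP-negative ones. Its log2 fold change was -0.28 ± 0.23 (95% interval -0.85 to 0.28; limma adjusted p = 0.661). With GFP-negative replicate 1 left out it was -0.05. GJA5 spans an antisense gene, AC241644.3, that is not analysed here. The labels do not say whether reads were counted by strand, so reads from opposite strands may have been joined.

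**Figure D1:**
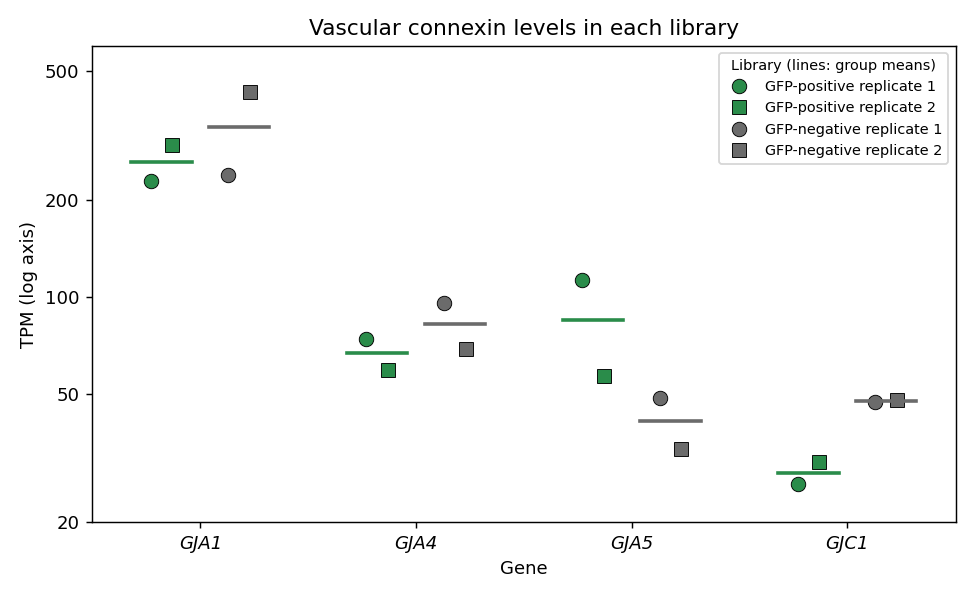
TPM of each vascular connexin (y axis, log scale) by gene (x axis), with 1 point per library, green for GFP-positive and grey for GFP-negative, circles for replicate 1, squares for replicate 2 and lines for the group means. GJA5 points of the groups are apart with GFP-positive higher (33.8 to 113 TPM over all 4 libraries), GJC1 points are apart with GFP-positive lower, and GJA1 and GJA4 points overlap.

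Of the 4 members, 0 were called by limma at an adjusted p of 0.05, where 0.447% of all 15425 tested genes were, and 2 (GJA5 and GJC1) had an unadjusted p under 0.05, where 14.1% of tested genes did. The same 2 had groups that did not overlap, which was so for 44.3% of tested genes, 22.8% higher and 21.5% lower in GFP-positive cells. Their log2 fold changes were above 0 for 1 member and below 0 for 3, with a median of -0.29 beside 0.02 over all tested genes.

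**Figure D2:**
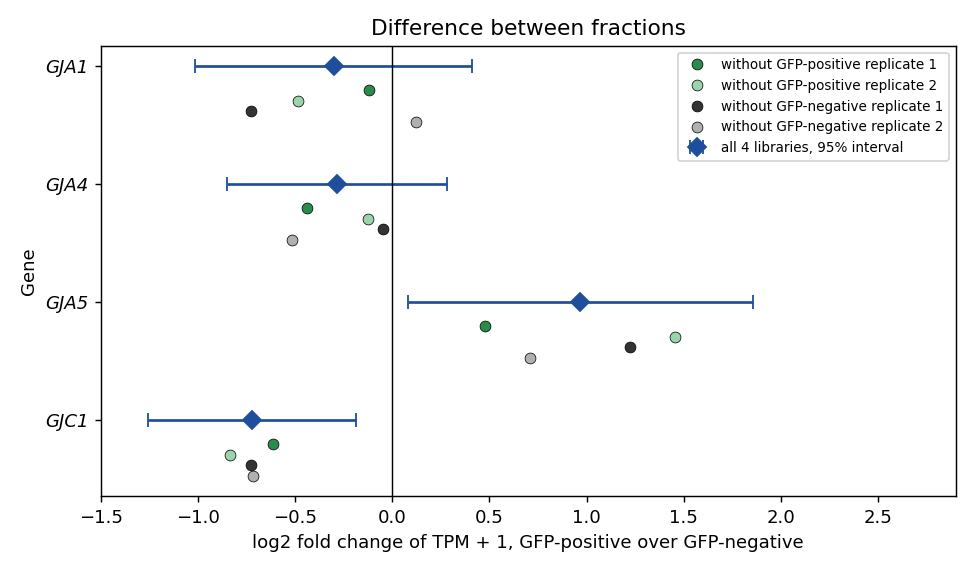
Log2 fold change of TPM + 1, GFP-positive over GFP-negative (x axis), for each vascular connexin (y axis). Diamonds with bars are the limma estimates from all 4 libraries with unadjusted 95% intervals, and circles are estimates with 1 library left out; GJA1 circles lie on both sides of 0, from -0.73 to 0.12, while GJA5 circles run from 0.48 to 1.46.

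By group means, the order of levels in GFP-positive cells was GJA1 (263 ± 47.2 TPM), GJA5, GJA4 (66.8 ± 10.5 TPM) and GJC1, and GJA5 and GJA4 did not differ beyond their spread. In GFP-negative cells it was GJA1 (336 ± 136 TPM), GJA4 (82.1 ± 18.9 TPM), GJC1 and GJA5, and GJC1 and GJA5 did not differ beyond theirs. GFP-positive replicate 2 and GFP-negative replicate 1 had the same order, GJA1, GJA4, GJA5 and GJC1, so the orders of single libraries do not separate the fractions. Against the 15425 tested genes of the same library, GJA1 was above 95.1% to 98.0% of them, GJA4 above 76.9% to 85.9%, GJA5 above 64.5% to 88.3% and GJC1 above 57.9% to 72.6%. GJA5 thus had the widest range of rank.

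Ratios within a library do not depend on how that library was scaled. GJA5 had 1.52 and 0.959 times the TPM of GJA4 in the GFP-positive libraries, and 0.510 and 0.491 times in the GFP-negative libraries. GJA4 was thus ahead of GJA5 in both GFP-negative libraries, and the pair were near equal or GJA5 was ahead in the GFP-positive ones. GJA5 had 4.31 and 1.85 times the TPM of GJC1 in the GFP-positive libraries, against 1.03 and 0.708 times in the GFP-negative libraries. For the log2 of each of these ratios a two-sided exact permutation test gave p = 0.33, the smallest that 2 against 2 libraries allow, and 0.8 after Benjamini-Hochberg adjustment over the 6 pairs of members. The other 4 ratios overlapped between groups. The ratio of GJA1 to GJA4 was 3.09 and 4.99 in the GFP-positive libraries and 2.51 and 6.28 in the GFP-negative libraries (exact permutation p = 1). In both fractions, the library with more GJA1 had less GJA4 and less GJA5.

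Summed over the 4 genes, the GFP-positive libraries had 443 TPM each (442.9 and 443.3) and the GFP-negative libraries 431 and 583 TPM. The sums overlapped (two-sided exact permutation p = 1), and without GFP-negative replicate 2 the difference of means turned from -63.6 to 12.2 TPM. GJA1 made up 51.8% and 66.8% of the sum in the GFP-positive libraries and 55.6% and 74.2% in the GFP-negative libraries (exact permutation p = 0.667). GJA5 made up 25.5% and 12.8% against 11.3% and 5.80%, and GJC1 5.92% and 6.94% against 11.0% and 8.20%. Both shares were apart between groups (exact permutation p = 0.33 for each, the smallest possible). The GJA5 share differed in mean by 10.6 percentage points, less than the gap between the GFP-positive libraries.

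**Figure D3:**
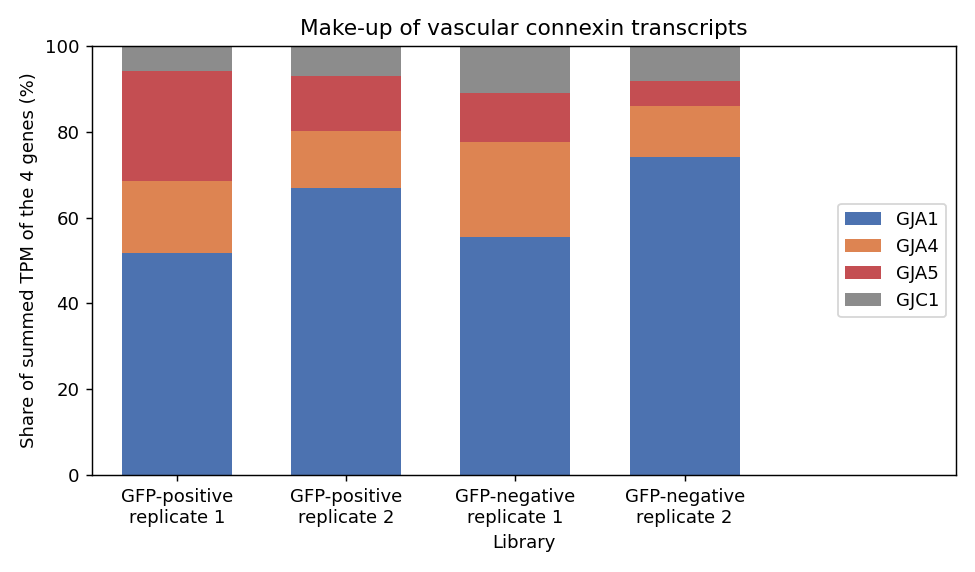
Share of each gene in the summed TPM of the 4 vascular connexins (y axis, percent) in each library (x axis), stacked from GJA1 at the bottom to GJC1 at the top. GJA1 is the largest part of every bar (51.8% to 74.2%), and the GJA5 part is larger in both GFP-positive bars.

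The members held 97.5% to 99.5% of the summed TPM of the 21 connexin genes in the tables. Of the 17 other connexins, 9 were listed at 0 in all 4 libraries, and 15, these included, stayed under 1 TPM in all. PANX1, of the pannexins, which form related channels between a cell and its surroundings, had 16.2 and 14.4 TPM against 5.53 and 9.86 TPM (limma adjusted p = 0.366). PANX2 stayed under 1 TPM and PANX3 was listed at 0.

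Of 18 tested genes of connexin partners and trafficking, 0 were called, 11 were above 0 and 7 below, with a median log2 fold change of 0.05. The most abundant were TUBB (beta-tubulin; 1837 against 2305 TPM), AP2M1 (an adaptor of endocytosis; 449 against 389 TPM) and CTNNB1 (beta-catenin; 367 against 446 TPM). Picked after their values were seen, for their known binding to connexins, were TJP1 and CAV1, both among the 7 below 0. TJP1 (ZO-1, the scaffold that binds the tail of Cx43) had 57.3 and 55.5 against 71.7 and 73.0 TPM (limma adjusted p = 0.433). CAV1, the main protein of caveolae, had 11.7 and 18.4 against 40.9 and 54.9 TPM (limma adjusted p = 0.107). CNST, of the 11 above 0, had 17.1 and 19.0 against 11.9 and 11.1 TPM (limma adjusted p = 0.447). NOV, a secreted partner of Cx43, was listed at 0. Of 16 tested kinases and phosphatases that act on connexins, 0 were called, 10 were above 0 and 6 below, with a median of 0.07. Their most abundant genes were PPP1CA (326 against 307 TPM), AKT1 (183 against 253 TPM) and PPP2CA (219 against 213 TPM). At an unadjusted p under 0.05, limma had 3 partner genes and 3 of the kinases and phosphatases, shares near the 14.1% of all tested genes.

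Arterial, Notch and shear-responsive genes include known regulators of GJA4 and GJA5. Of 29 tested, 1 fell (0.324% of all tested genes did) and 0 rose (0.123% did). At an unadjusted p under 0.05, limma had 16 of the 29, against 14.1% of all tested genes. A total of 25 were below 0 and 4 above, with a median log2 fold change of -0.72. The one that fell was SOX7, an endothelial SOX factor, at 71.5 and 72.5 against 202 and 184 TPM (log2 fold change -1.41 ± 0.15; limma adjusted p = 0.0391, and 0.0541 to 0.130 with each library left out in turn). The most abundant were KLF2, the shear-induced factor (304 ± 120 against 240 ± 94.6 TPM), ENG, a co-receptor of the TGF-beta family (92.1 against 199 TPM), and HES1, a Notch target (114 against 167 TPM), and none of these passed. GJA5 lay on the other side of 0 from the Notch receptors, ligands and targets of this list. NOTCH1, NOTCH4, DLL1, DLL4, JAG1, JAG2, HEY1, HEY2 and HES1 had log2 fold changes from -1.56 for HEY1 to -0.53 for JAG1 without a call. Whether GJA5 differs from those genes was not tested. The heart-field factors of the list, named after their values were seen, did not share a direction, and none was called. TBX3 had 42.8 and 65.1 against 21.0 and 34.0 TPM (limma adjusted p = 0.283) and TBX20 25.2 and 20.9 against 18.3 and 15.9 TPM (0.596). NKX2-5 had 8.59 and 7.49 against 18.4 and 12.7 TPM (limma adjusted p = 0.377). TBX5, which activates GJA5 in the heart, was between 0.7 and 1.67 TPM, and TBX2 was at 0.17 TPM or less.

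**Figure D4:**
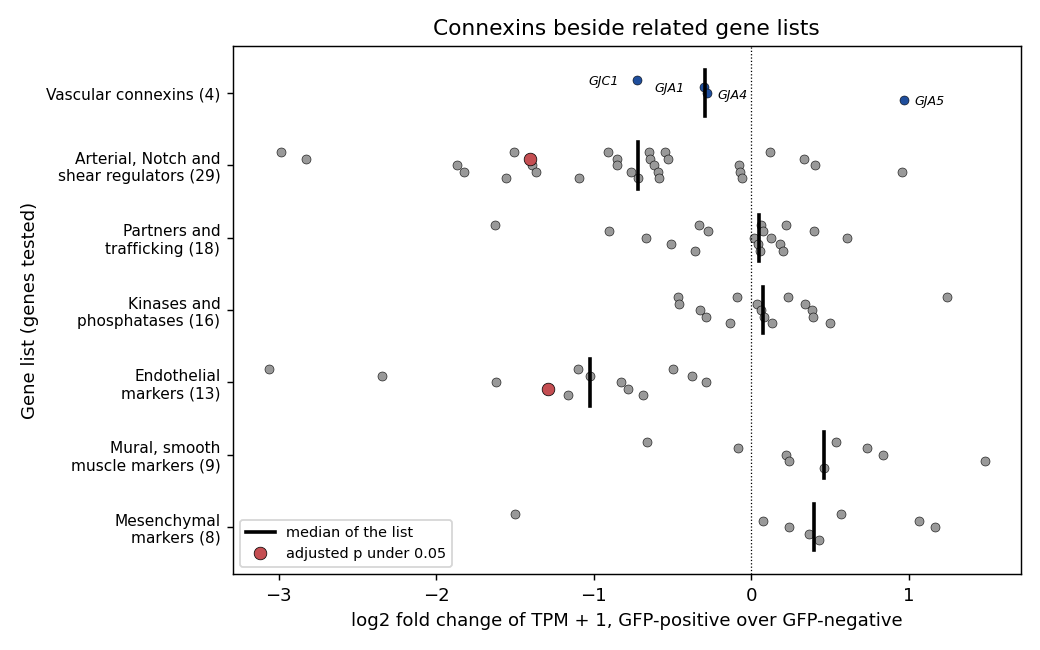
Log2 fold change of TPM + 1, GFP-positive over GFP-negative (x axis), of every tested gene of 7 lists (y axis; number tested in brackets), with list medians as black bars and genes at an adjusted p under 0.05 in red. The vascular connexins (blue) straddle 0 with a median of -0.29, while all 13 endothelial markers lie below 0.

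Marker lists of the cell types that carry these connexins, and of other cell types, were set beside all tested genes. Of all tested genes, 0.447% were called by limma and 14.1% had an unadjusted p under 0.05. All 13 endothelial markers were below 0, 12 had an unadjusted p under 0.05 and 1, CD34, was called. The other most abundant ones were EGFL7, a secreted endothelial protein (1661 against 2152 TPM), KDR, the VEGF receptor (636 against 1024 TPM), and ESAM, an adhesion molecule (607 against 846 TPM). Their summed level was 4428 to 4626 TPM in GFP-positive and 7076 to 7644 TPM in GFP-negative libraries. In bulk RNA, fewer cells of a type and less RNA per cell cannot be told apart. Of 9 tested mural and smooth muscle markers, 7 were above 0, 0 were called by limma and 3 had an unadjusted p under 0.05, and the sum was 2231 to 2244 against 1576 to 1654 TPM. RGS5 (1194 against 1010 TPM), TAGLN (834 against 472 TPM) and DES (94.5 against 36.9 TPM) made up most of it, MYH11, the defining contractile myosin, did not pass 3.48 TPM, and KCNJ8 was listed at 0. Of 8 tested mesenchymal markers, 7 were above 0, 0 were called and 2 had an unadjusted p under 0.05, with a sum of 922 to 1004 against 514 to 632 TPM, mostly from COL1A1, COL1A2 and COL3A1, while TCF21 was listed at 0. The part of these cell types in the connexin levels was not tested.

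Other marker lists were small beside these or held few of their defining genes. Cardiac markers summed to 25.3 to 40.7 against 30.9 to 40.5 TPM, with 0 of 6 tested called by limma and 1 at an unadjusted p under 0.05. Of the 6, 4 were above 0 and 2 below, with a median log2 fold change of 0.15. The 1 at an unadjusted p under 0.05 was TNNI3, with 3.92 and 6.55 against 0 and 1.65 TPM (limma adjusted p = 0.279). The most abundant were NKX2-5, MYL7, the atrial light chain (17.8 and 6.74 against 8.89 and 10.6 TPM), and TNNT2, a cardiac troponin (7.37 and 0.97 against 6.11 and 4.10 TPM). MYH7 and TTN stayed under 1 TPM, and NPPA, an atrial hormone gene, was above 0 in GFP-negative replicate 1 alone, at 4.02 TPM. Pluripotency markers summed to 584 to 710 against 475 to 505 TPM with 0 of 7 tested called by limma and 2 at an unadjusted p under 0.05, nearly all from LIN28A, DNMT3B and DPPA4. Of the 7, 4 were below 0, with a median log2 fold change of -0.08. POU5F1, the defining factor, had 0.93 and 0.03 against 9.68 and 5.88 TPM (limma adjusted p = 0.131), the opposite direction to the sum, and SOX2 was at 0.23 TPM or less. Blood markers summed to 312 to 485 against 91.0 to 95.9 TPM. Of 11 tested, 9 were above 0 and 2 below, and 8 had an unadjusted p under 0.05 in limma. The 1 that rose was the globin gene HBG2, from 2.27 and 2.11 to 90.6 and 45.7 TPM (limma adjusted p = 0.0316). Reads of HBG2 and its near-identical copy HBG1 may not all be assignable. The most abundant others were GYPB, a glycophorin (91.0 against 31.7 TPM), ITGA2B, the gene of CD41 (69.4 against 28.2 TPM), and HBE1, the embryonic globin (74.4 against 5.30 TPM), and none of these passed. A list of stromal feeder markers (THY1, NT5E and LEPR among them) summed to 212 to 349 against 488 to 665 TPM, with 0 of 4 tested called by limma and 3 at an unadjusted p under 0.05, and VCAM1 was listed at 0. LEPR lay on the other side from the sum, with 60.4 and 39.2 against 14.7 and 11.6 TPM (limma adjusted p = 0.0831). Whether the transcripts of this list came from feeder cells or from the sorted cells themselves was not tested.

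The genes with a profile most like that of a member over the 4 libraries were found by the root mean square difference of centred log2(TPM + 1), among 9946 other genes with a mean of at least 10 TPM. For GJC1 they were MCM5, a subunit of the replicative helicase (0.0135), FAM108A1 (0.0254) and PLAU, the gene of urokinase (0.0258). MCM5 had 128 and 150 against 224 and 231 TPM. For GJA1 they were IPO13, an importin (0.0228), ANKRD13D (0.0236) and OAF (0.0285), and for GJA4 a gene listed by a clone name only (0.0188), TAC3, the gene of neurokinin B (0.0279), and TP53RK (0.0306). GJA5 had no neighbour as close: FAM98A differed by 0.0577, CSF2RA by 0.0688 and FOXN2 by 0.0730. Among the members themselves, GJA4 and GJC1 were the most alike (0.336) and GJA5 and GJC1 the least (0.964). With 4 libraries and this many candidates, close profiles are a description only.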

How the data were processed

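RNA was taken with Trizol and made into libraries with an Illumina TruSeq RNA kit, per the labels' protocols. The authors deposited 1 table of TPM values per library, per the file headers with an Ensembl identifier and a symbol for each gene, and sums lie between 996323.6 and 997292.9. The submitters' processing notes name Bowtie, RSEM, hg19 and mm10 without roles or versions; annotation and parameters: not given in the sources used here. Groups and replicate numbers came from the titles.

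Limma 3.58.1 in R 4.3.3 was fitted, with a variance trend, to log2(TPM + 1) of genes of at least 1 TPM in at least 2 libraries, two-sided, with Benjamini-Hochberg adjustment over all 15425 tested genes and 0.05 as the threshold. The code was tested on simulated data with known changes in genes above the median level. Limma called 5.4% of the changes of 1 log2 unit there, and 59.2% of those of 2 log2 units. A member without a call is therefore not shown to be unchanged. Fold changes on this scale understate those of low genes. Sums, shares and ratios were compared by exact permutation over libraries. Members, lists and tests were chosen with earlier results of these data known. By rule, a list's called genes and its 3 most abundant genes are named, and the 3 genes closest in profile to each member; some of the other connexins are not reported here. Other list genes were named after their values were seen. A symbol in several rows (87 repeats) was taken from the row that a table of gene names pairs with it. Coordinates come from GENCODE v29, promoters from RefSeq (GJA1 and GJA5). Of list symbols, CCN3 (present as NOV), CIP75 and PECAM1 had no row. Alternatives were another pseudocount, filter, trend or scaling, a block on the replicate number, and leaving out each library.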

Additional observations from a re-analysis of the deposited data

How the results depend on the processing

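Limma gave no member an adjusted p under 0.05 in any setting tried, except GJA5 with the replicate number as a block (adjusted p = 0.0447, log2 fold change 0.97). The labels give no pairing beyond the number. Over all genes the deviations of same-numbered libraries from their group means correlated at 0.0719. That value cannot decide whether the libraries were paired, for pairing may act on some genes only. The block brought the calls over all genes from 69 to 596, and changed no other member's call. With it the SE went from 0.29 to 0.15 for GJA1 and from 0.36 to 0.22 for GJA5, but from 0.22 to 0.25 for GJC1. Calls over all genes were 0 with a pseudocount of 0.1, 0 without a filter, 0 without a variance trend (2101, 2230 and 2072 at an unadjusted p under 0.05) and 164 with a mean above 5 TPM. Over the 4 fits with 1 library left out they ran from 18, without GFP-negative replicate 1, to 65. In such fits the lone library of a group is assumed to vary like the other group.

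With each library left out, log2 fold changes ran from -0.73 to 0.12 for GJA1 (reversed without GFP-negative replicate 2), -0.52 to -0.05 for GJA4, 0.48 to 1.46 for GJA5 and -0.83 to -0.61 for GJC1. The difference in summed TPM ran from -139 to 12.2 TPM, that in the GJA1 share from -14.9 to 3.75 percentage points (1.94 without GFP-positive replicate 1), and that in the log2 ratio of GJA4 to GJA1 from -0.65 to 0.68 (-0.33 without GFP-positive replicate 1, 0.02 with all libraries). Both other scalings kept the direction of every member and of the sum. Read depth is unknown, and 2 libraries per group limit every comparison. For GATA2, CD34, SOX7 and HBG2, settings were added after seeing the data. All kept their direction, and limma called none of them with the smaller pseudocount (adjusted p of 0.0638 to 0.0662), without a filter (0.0699 to 0.079) or without a trend (0.133 to 0.176).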
